A study of Mus musculus with 8 samples.

Results

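The 38 genes described here encode glycolytic enzymes, glucose and lactate transporters, and components and targets of the hypoxia-inducible factor (HIF) pathway. They were taken by gene symbol from a table of 46406 entries, and all 38 were found. A mean of at least 1 FPKM over the 8 libraries was required for testing, which left 36 of these genes among 14521 tested genes. Adm and Epas1 were below that level. Poly(A) RNA was sequenced from anterior neural progenitors, an in vitro counterpart of early forebrain cells made from E14 mouse embryonic stem cells. Of the 8 libraries, 2 came from PE Lhx5(-109)-/- clone 2, 2 from PE Lhx5(-109)-/- clone 1 and 4 from wild-type (WT) E14 cells. Both clones carry a CRISPR-Cas9 deletion of the poised enhancer (PE) named Lhx5(-109) after Lhx5, a LIM homeobox gene of the forebrain. All groups were differentiated for 3 days in N2B27 medium with 10 ng/ml bFgf and for 2 more days without it, with the WNT inhibitor Xav939 at 5 μM from day 2 to day 5. Each clone is 1 line grown from single cells after puromycin selection, and no clonal step is given for WT, so the deletion and the cloning cannot be told apart.

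Glycolysis splits glucose into pyruvate in the cytosol, and lactate dehydrogenase turns pyruvate into lactate when it is not oxidised in mitochondria. HIF is a transcription factor made of an oxygen-sensitive alpha subunit and a stable partner: with oxygen, prolyl hydroxylases mark the alpha subunit for breakdown, and without it HIF raises transcription of glycolytic enzymes, glucose transporters and genes for vessel growth and mitophagy. Proliferating stem and progenitor cells run glycolysis at a high rate, and neural differentiation is known to be accompanied by a shift towards mitochondrial respiration.

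Lhx5 stood at 1.90 and 1.26 FPKM in clone 2, 1.24 and 0.854 FPKM in clone 1 and 15.0 to 17.5 FPKM in WT. Every library thus matched its label as null or WT. The Lhx5 level does not check which clone or library number a null library carries. Progenitor markers were detected in all libraries, though their single levels differed between the lines (below), with a summed level of the 10 listed genes of 549 and 568 FPKM in clone 2, 568 and 520 FPKM in clone 1 and 558 to 598 FPKM in WT. Clone 1 library 2 stood apart in its RNA composition, with the non-polyadenylated Rn7sk at 250.2 FPKM, against 8.05 to 28.4 FPKM in the other 7 libraries. The read depth of each library is unknown, since only FPKM values are used here. The labels call the libraries biological replicates without naming separate cultures, so p-values measure only the spread between these libraries. In bulk RNA, fewer cells of a type and less RNA per cell cannot be told apart.

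HIF binds short DNA elements with the core ACGTG or GCGTG, and the RefSeq (GRCm38.p6) promoter window, from 250 bases before to 50 bases after a RefSeq transcript start, was read for 34 of the 38 genes, with 1 window per gene, the one nearest the start of a principal transcript in GENCODE M21. That start lay inside the window for 28 genes and outside it for Aldoa, Pgam1, Eno1, Hif1a, Vegfa and P4ha2, by most for Hif1a, whose RefSeq start was 6492 bases away. The promoters of Bnip3l, Slc2a3, Ndrg1 and Epas1 are not shown. Both cores were searched on both strands, and the 2 overlapping matches within CACGTG were counted 1 per strand. At least 1 core stood in 27 of 34 promoters (79.4%), against 43.8% of 32851 promoter entries and 63.3% of the 11260 entries of tested genes. Of the 28 windows that held the principal start, 23 had a core (82.1%). Among the genes lower in clone 2 library 2 than in WT (below), 16 of 20 held a core (80.0%), and among the tested genes not past the threshold there, 10 of 13 did (76.9%). A match is a run of letters and does not show that a factor binds. The first 5 promoters below belong to the genes with the smallest adjusted p in clone 2 library 2. Ldhb, from the same step as Ldha, and Hk2, from another glycolytic step, are shown as genes not past the threshold. The choice was made after the values were seen. Capitals mark the cores. The Ldha window, with 7 matches, is chr7:46845554-46845853 on the plus strand, and the Tpi1 window, with 0 matches, is chr6:124814109-124814408 on the minus strand. Those of Pgk1 and Pfkl, with 2 matches and 1 match, are chrX:106186850-106187149 on the plus strand and chr10:78009758-78010057 on the minus strand. That of Slc16a3, with 2 matches, is chr11:120948817-120949116 on the plus strand, and those of Ldhb and Hk2, with 1 match and 2 matches, are chr6:142507908-142508207 and chr6:82774405-82774704 on the minus strand.
Ldha: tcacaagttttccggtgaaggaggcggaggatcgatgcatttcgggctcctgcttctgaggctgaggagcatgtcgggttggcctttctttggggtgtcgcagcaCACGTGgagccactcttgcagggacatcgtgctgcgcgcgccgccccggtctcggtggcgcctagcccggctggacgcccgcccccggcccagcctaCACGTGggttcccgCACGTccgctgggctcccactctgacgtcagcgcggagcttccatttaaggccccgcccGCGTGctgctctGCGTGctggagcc
Tpi1: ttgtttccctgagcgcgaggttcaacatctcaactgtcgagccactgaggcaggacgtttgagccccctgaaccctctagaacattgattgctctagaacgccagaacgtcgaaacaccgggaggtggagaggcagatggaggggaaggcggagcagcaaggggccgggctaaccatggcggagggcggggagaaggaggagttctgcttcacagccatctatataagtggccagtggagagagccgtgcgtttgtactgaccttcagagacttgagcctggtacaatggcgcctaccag
Pgk1: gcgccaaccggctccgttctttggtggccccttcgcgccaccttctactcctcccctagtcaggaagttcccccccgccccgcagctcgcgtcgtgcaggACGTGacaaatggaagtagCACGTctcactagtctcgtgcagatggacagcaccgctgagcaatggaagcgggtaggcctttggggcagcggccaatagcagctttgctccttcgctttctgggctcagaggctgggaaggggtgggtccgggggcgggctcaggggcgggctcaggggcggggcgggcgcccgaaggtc
Pfkl: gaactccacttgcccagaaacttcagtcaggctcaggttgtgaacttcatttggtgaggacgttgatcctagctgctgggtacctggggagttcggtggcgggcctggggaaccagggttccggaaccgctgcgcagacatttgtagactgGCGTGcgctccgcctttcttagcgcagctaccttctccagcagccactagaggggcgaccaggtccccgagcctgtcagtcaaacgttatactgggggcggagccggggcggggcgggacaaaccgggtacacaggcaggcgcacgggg
Slc16a3: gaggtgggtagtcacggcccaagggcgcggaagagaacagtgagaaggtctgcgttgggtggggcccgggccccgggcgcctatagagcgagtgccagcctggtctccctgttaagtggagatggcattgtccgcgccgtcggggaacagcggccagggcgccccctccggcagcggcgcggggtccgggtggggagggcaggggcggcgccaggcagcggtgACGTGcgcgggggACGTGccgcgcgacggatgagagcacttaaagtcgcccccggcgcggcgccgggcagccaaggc
Ldhb: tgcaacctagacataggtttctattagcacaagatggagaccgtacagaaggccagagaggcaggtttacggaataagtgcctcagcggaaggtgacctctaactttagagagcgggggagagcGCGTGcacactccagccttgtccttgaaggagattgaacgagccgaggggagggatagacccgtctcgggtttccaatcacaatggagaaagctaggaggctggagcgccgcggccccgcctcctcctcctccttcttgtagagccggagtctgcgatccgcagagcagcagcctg
Hk2: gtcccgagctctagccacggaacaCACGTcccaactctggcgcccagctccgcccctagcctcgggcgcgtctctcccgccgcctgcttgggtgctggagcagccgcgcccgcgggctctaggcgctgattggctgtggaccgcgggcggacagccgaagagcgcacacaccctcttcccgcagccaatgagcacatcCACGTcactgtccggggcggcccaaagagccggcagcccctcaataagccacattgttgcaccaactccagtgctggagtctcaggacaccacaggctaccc

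Most of these genes had their lowest level in clone 2 library 2. Of the 36 tested genes, 24 lay below all 4 WT libraries in clone 2 library 1, where 28.7% of all tested genes did so. In clone 2 library 2 the count was 33, against 34.7% of all tested genes. Both clone 2 libraries lay below all WT libraries for 24 genes, against 22.7% of all tested genes. Library 2 was the lowest of all 8 libraries for 29 of the 36 genes, a position it held for 23.3% of all tested genes. In clone 1 library 1, 5 lay below and 14 above all WT libraries, where 34.2% and 28.8% of all genes did so. In clone 1 library 2, 9 lay below and 9 above, where 51.4% and 18.4% of all genes did so. The single gene above WT in both clone 2 libraries was Hif1a. The summed level of the 38 genes made up 1.34% and 1.16% of all FPKM in clone 2, 1.52% and 1.51% in clone 1 and 1.43% to 1.59% in WT.

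**Figure D1:**
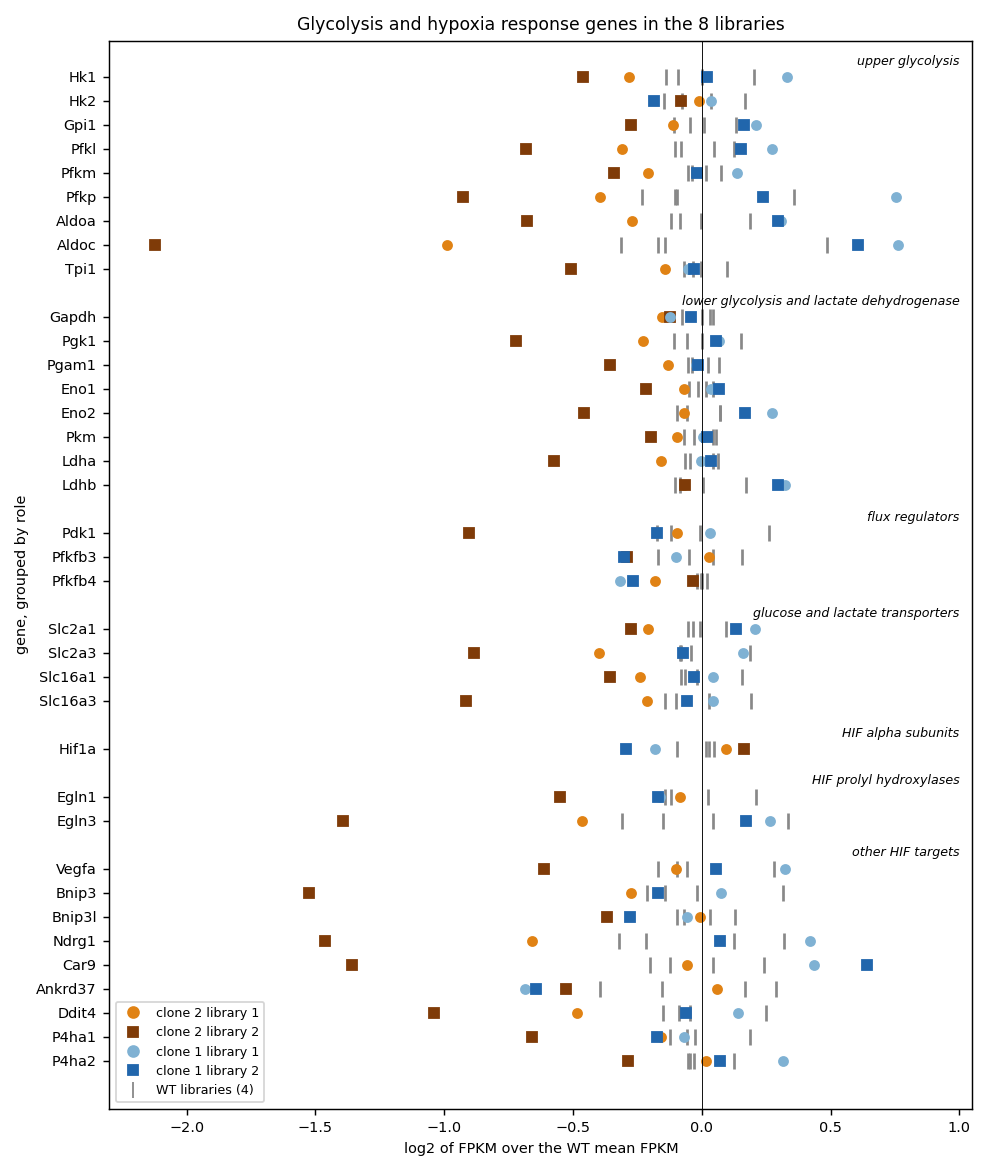
Each row is 1 tested gene, grouped by role, and the x axis is the log2 ratio of a library's FPKM to the mean FPKM of the 4 WT libraries, with no pseudocount. Clone 2 library 2 (brown squares) lies left of every WT library (grey ticks) for 33 of 36 genes and clone 2 library 1 (orange circles) for 24, while the clone 1 libraries (blue) lie on both sides.

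**Figure D2:**
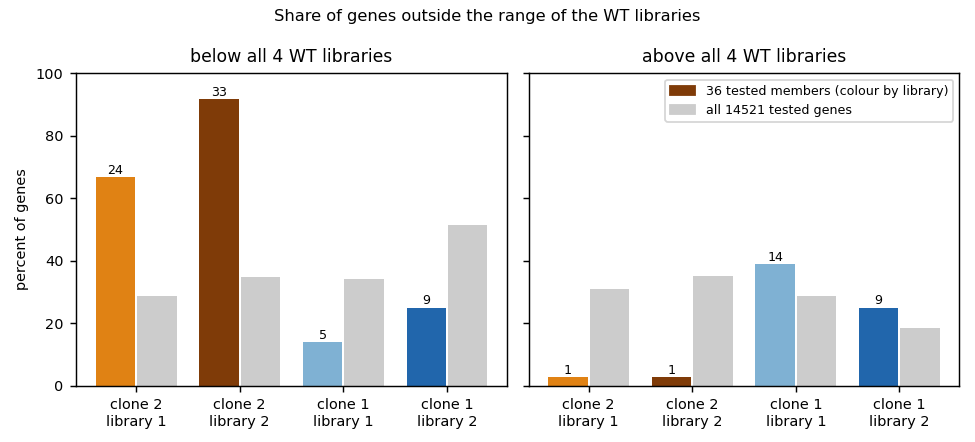
Bars give the percent of genes below (left) or above (right) all 4 WT libraries in each null library, for the 36 tested genes (coloured, with the number of genes on top) and for all 14521 tested genes (grey). Below WT, the coloured bar stands above the grey one in both clone 2 libraries and under it in both clone 1 libraries.

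Tested 1 by 1 against WT, the clone 2 libraries differed in what passed the threshold, an adjusted p of 0.05 by limma with Benjamini-Hochberg adjustment over all 14521 genes. In clone 2 library 2, 22 of the 36 genes were lower and 0 higher than in WT, where 6.05% of all tested genes were called lower and 5.48% higher. In clone 2 library 1, 0 passed in either direction, where 0.592% of all genes were called lower and 0.634% higher. In library 1, 32 of the 36 log2 differences from WT were negative, as were 48.8% of those over all tested genes. The median log2 difference from WT, on the log2(FPKM + 1) scale used for every fold change here, was -0.15 in library 1 and -0.47 in library 2, with medians of 0.00 in both over all genes. Each of these fits sets a single library against 4 WT libraries and assumes that it varies like the libraries of the other groups. The count in library 2 was 16 to 22 when each other library was left out in turn, 15 without the filter on low values and 16 with limma without trend or robust moderation, and 13 of the 22 calls were kept in each of the 11 alternatives run. In library 1, leaving out WT library 2 gave 1 gene lower.

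Set directly against each other, clone 2 library 1 minus library 2 was positive for 32 of 36 genes, as for 50.9% of all tested genes, with a median of 0.37 and a median of 0.00 over all genes. Each side of this comparison is 1 library, so its p-values take all their spread from the WT and clone 1 libraries and hold no measure of the spread within clone 2. By limma, 0 of the 36 passed the threshold, where 0.158% of all genes were called higher in library 1 and 0.124% lower. Limma without trend or robust moderation also called 0, and leaving out WT library 2 gave 3 genes higher in library 1. Library 2 stood at a median of 76.8% of library 1 over the 36 genes, with a range of 40.7% to 110.7%. Over all tested genes that median was 99.6%, and the span between the 10th and the 90th percentile was 81.4% to 115.0%. A level at or below 75% of library 1 was reached by 16 of the 36 genes and by 7.62% of all tested genes.

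**Figure D3:**
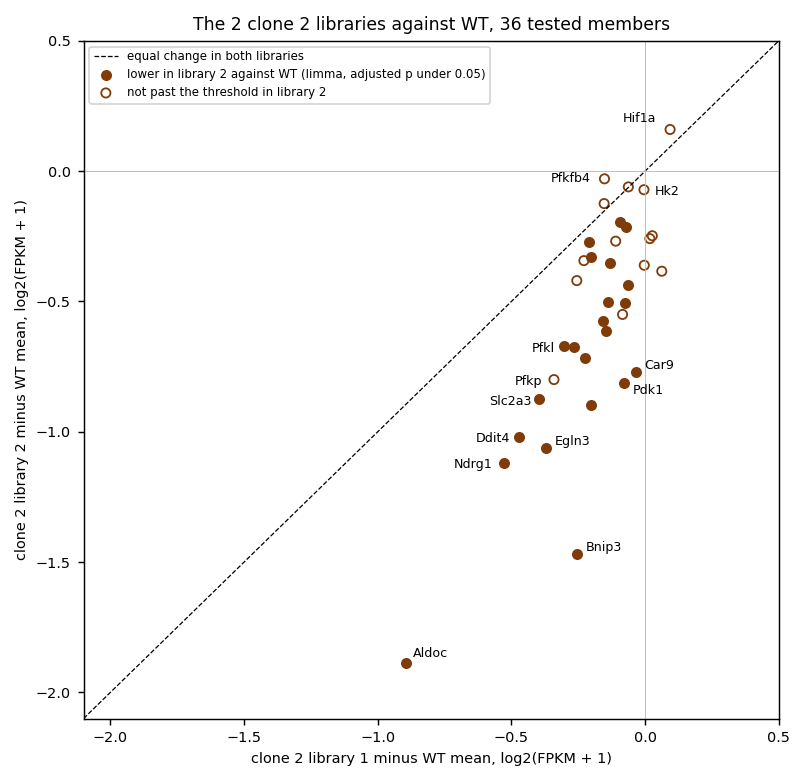
Each point is 1 of the 36 tested genes, with its log2(FPKM + 1) difference from the WT mean in clone 2 library 1 (x) and in clone 2 library 2 (y). Filled points are the 22 genes past the threshold in library 2, and 32 of 36 points lie under the dashed line of equal change.

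In upper glycolysis, which spends ATP to trap glucose and split it into trioses, 5 of 9 genes were lower in clone 2 library 2 than in WT: Pfkl, Pfkm, Aldoa, Aldoc and Tpi1. Aldoc, the brain form of the enzyme that splits fructose 1,6-bisphosphate, changed most on the log scale. It stood at 10.6 and 4.82 FPKM in clone 2, 35.5 and 31.9 FPKM in clone 1 and 16.9, 29.4, 18.6 and 19.0 FPKM in WT. Both clone 2 libraries lay below and both clone 1 libraries above every WT library. The log2 difference from WT was -1.89 ± 0.29 (SE) in clone 2 library 2 (limma adjusted p = 0.0221) and -0.89 in clone 2 library 1 (adjusted p = 0.254), and the call in library 2 was lost without WT library 3 or 4 (adjusted p of 0.000293 to 0.0609 over the 11 alternatives). Aldoa (chr7:126795234-126800751, minus strand), the main form, stood at 473 and 357 FPKM in clone 2, 708 and 701 FPKM in clone 1 and 569.7, 651, 526 and 539 FPKM in WT, with the same order of the lines. The share of Aldoc in the sum of both aldolases was 2.18% and 1.33% in clone 2, 4.78% and 4.35% in clone 1 and 2.88% to 4.32% in WT.

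Pfkl encodes the liver-type subunit of phosphofructokinase, which catalyses the committed step, and it was the most abundant of the 3 subunits per length. Its level was 116 and 89.5 FPKM in clone 2, 173 and 159.6 FPKM in clone 1 and 148, 157, 136 and 134 FPKM in WT, with no overlap between the 3 lines. In clone 2 library 2 it fell by 0.67 on the log2 scale relative to WT (limma adjusted p = 0.00714). Pfkm, the muscle-type subunit, stood at 27.7 and 25.3 FPKM in clone 2, 35.2 and 31.7 FPKM in clone 1 and 30.9, 33.7, 32.5 and 31.2 FPKM in WT. Its call in library 2 (adjusted p = 0.0384) was lost without any 1 of the WT libraries, without the filter on low values and with limma without trend or robust moderation (0.0181 to 0.0836 over the alternatives). Pfkp, the platelet-type subunit, stood at 7.78 and 5.39 FPKM in clone 2, 17.3 and 12.1 FPKM in clone 1 and 9.53, 13.1, 8.72 and 9.58 FPKM in WT, and its difference of -0.80 in clone 2 library 2 did not pass (adjusted p = 0.0872). Tpi1 (chr6:124810586-124814296, minus strand), which interconverts the trioses and whose printed promoter holds no core, stood at 307 and 239 FPKM in clone 2, 327 and 332 FPKM in clone 1 and 338, 363, 323 and 331 FPKM in WT. Its log2 difference from WT was -0.50 ± 0.06 (SE) in clone 2 library 2 (limma adjusted p = 0.00463) and -0.14 in library 1 (adjusted p = 0.321).

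The first enzymes of the pathway were outside the calls in clone 2 library 2. Hk1, the hexokinase found in most tissues, stood at 11.3 and 9.99 FPKM in clone 2, 17.3 and 14.0 FPKM in clone 1 and 12.5 to 15.9 FPKM in WT (adjusted p in library 2 = 0.100, limma). Hk2, an inducible hexokinase and a known HIF target, stood at 14.0 and 13.3 FPKM in clone 2, 14.4 and 12.3 FPKM in clone 1 and 12.7 to 15.8 FPKM in WT. Both clone 2 libraries lay within the WT range for Hk2, which with Ldhb made it 1 of 2 tested genes in that position. Gpi1, which converts glucose 6-phosphate to fructose 6-phosphate, stood at 179 and 160.1 FPKM in clone 2, 224 and 217 FPKM in clone 1 and 179.6 to 212 FPKM in WT (adjusted p in library 2 = 0.0690).

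In lower glycolysis with lactate dehydrogenase, which yields ATP and then lactate, 6 of 8 genes were lower in clone 2 library 2 than in WT: Pgk1, Pgam1, Eno1, Eno2, Pkm and Ldha. Ldha (chr7:46841475-46855627, plus strand), the lactate dehydrogenase subunit that favours lactate, had the smallest adjusted p of all 36 genes. Its level was 575 and 430.4 FPKM in clone 2, 640.0 and 657 FPKM in clone 1 and 661, 669.8, 613 and 621 FPKM in WT. Clone 1 lay within the WT range and clone 2 below it, with library 2 at 67.1% and library 1 at 89.6% of the WT mean. The log2 difference from WT was -0.57 ± 0.05 (SE) in library 2 (limma adjusted p = 0.00193) and -0.16 ± 0.05 in library 1 (adjusted p = 0.236). Library 1 minus library 2 was 0.42 ± 0.07 for Ldha (adjusted p = 0.101), the smallest of the 36 in that comparison. Its promoter held 7 core matches, the most among the 34.

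Ldhb, the subunit that favours pyruvate, did not follow Ldha. It stood at 60.5 and 60.6 FPKM in clone 2, 79.3 and 77.9 FPKM in clone 1 and 59.0, 71.4, 59.8 and 63.6 FPKM in WT, so clone 2 lay within WT and clone 1 above it. The ratio of Ldhb to Ldha was 0.105 and 0.141 in clone 2, 0.124 and 0.118 in clone 1 and 0.0892 to 0.107 in WT. The highest ratio was that of clone 2 library 2, where Ldha was low, while in clone 1 Ldhb was high.

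Pgk1 (chrX:106187100-106203699, plus strand), which makes the first ATP of the pathway, stood at 404 and 287 FPKM in clone 2, 496 and 492 FPKM in clone 1 and 473, 526, 439.6 and 455 FPKM in WT. Only clone 2 lay outside the WT range, and library 2 was at 71.1% of library 1. The log2 difference from WT in library 2 was -0.72 ± 0.09 (SE, limma adjusted p = 0.00547). Pgam1, the phosphoglycerate mutase, stood at 372 and 319 FPKM in clone 2, 402 and 404 FPKM in clone 1 and 393 to 428 FPKM in WT (library 2 adjusted p = 0.00795). Pkm, the pyruvate kinase of the last step, stood at 842 and 784 FPKM in clone 2, 902 and 911 FPKM in clone 1 and 858 to 933 FPKM in WT (library 2 adjusted p = 0.0439). Eno2, the neuronal enolase, stood at 24.2 and 18.4 FPKM in clone 2, 30.6 and 28.4 FPKM in clone 1 and 23.7 to 26.6 FPKM in WT (library 2 adjusted p = 0.0223). The call of Eno2 was lost without WT library 3 and without the filter on low values (adjusted p of up to 0.0535), and that of Pkm in 8 of the 11 alternatives, among them those without WT library 1, 2 or 4 or without either clone 1 library (up to 0.118).

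Gapdh and Eno1, both abundant, differed by small amounts. Gapdh, the glyceraldehyde 3-phosphate dehydrogenase, stood at 1841 and 1878 FPKM in clone 2, 1880.0 and 1990.0 FPKM in clone 1 and 2097, 2110.1, 1941 and 2047 FPKM in WT. Here library 1 and not library 2 was the lowest of the 8, and library 2 was not past the threshold (limma adjusted p = 0.156). Eno1, the main enolase, stood at 595 and 537 FPKM in clone 2, 640.4 and 654 FPKM in clone 1 and 604 to 644 FPKM in WT. Its nearly identical copy Eno1b stood at 234 and 211 FPKM in clone 2, 256 and 261 FPKM in clone 1 and 236 to 254 FPKM in WT, so the split of reads between them is uncertain. The call of Eno1 in library 2 (adjusted p = 0.0214) was lost without WT library 4, with median-ratio scaling and with limma without trend or robust moderation (up to 0.0727).

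All 4 transporter genes lay below every WT library in both clone 2 libraries, and Slc2a1, Slc2a3 and Slc16a3 were lower in clone 2 library 2 by the test. Slc2a3 (chr6:122727809-122801640, minus strand), the high-affinity glucose transporter of neurons and early embryos, stood at 264 and 189 FPKM in clone 2, 390.1 and 331 FPKM in clone 1 and 339, 398, 329.7 and 329 FPKM in WT. Its log2 difference from WT was -0.88 ± 0.13 (SE) in library 2 (limma adjusted p = 0.0161) and -0.40 ± 0.13 in library 1 (adjusted p = 0.245). Slc2a1 (chr4:119108711-119137983, plus strand), the glucose transporter of most growing cells, differed less and nearly equally in both clone 2 libraries: 297 and 284 FPKM in clone 2, 396 and 377 FPKM in clone 1 and 341, 367, 330.3 and 335 FPKM in WT, with no overlap between the lines. Its call in library 2 (adjusted p = 0.0306) was lost without WT library 1 or 4, without the filter on low values and with limma without trend or robust moderation (up to 0.0799). The ratio of Slc2a3 to Slc2a1 was lowest in clone 2 library 2, at 0.667, with 0.890 in clone 2 library 1, 0.986 and 0.880 in clone 1 and 0.982 to 1.08 in WT.

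Slc16a3, which exports lactate and is a known HIF target, stood at 68.1 and 41.8 FPKM in clone 2, 81.2 and 75.8 FPKM in clone 1 and 80.5, 90.0, 71.4 and 73.6 FPKM in WT. Library 2 was at 53.0% and library 1 at 86.4% of the WT mean, and the log2 difference in library 2 was -0.90 ± 0.12 (SE, limma adjusted p = 0.00743). Slc16a1, a lactate and pyruvate transporter, stood at 32.5 and 30.0 FPKM in clone 2, 39.5 and 37.6 FPKM in clone 1 and 36.3 to 42.7 FPKM in WT. The 2 clone 2 libraries were close for Slc16a1, and library 2 alone did not pass (adjusted p = 0.0517).

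**Figure D4:**
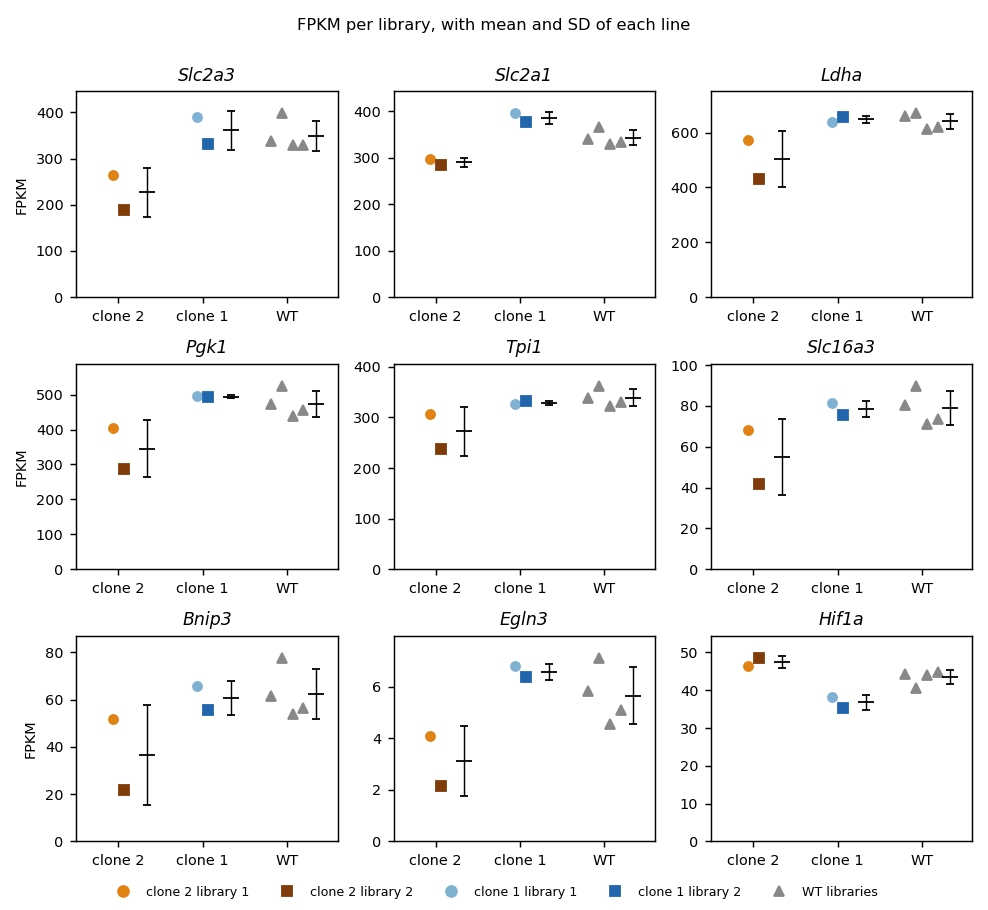
FPKM of 9 genes in each library, with the mean and SD of each line (n = 2, 2 and 4) drawn beside the points, and each y axis starting at 0. For Ldha, Pgk1, Tpi1, Slc16a3 and Bnip3 the brown square of clone 2 library 2 sits well under the orange circle of library 1, for Slc2a1 the 2 are close, and Hif1a shows clone 2 on top.

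Of the regulators of flux, Pdk1, the kinase that keeps pyruvate out of mitochondria, was lower in clone 2 library 2 than in WT. It stood at 12.9 and 7.40 FPKM in clone 2, 14.1 and 12.2 FPKM in clone 1 and 13.8, 16.6, 12.3 and 12.7 FPKM in WT. Library 1 lay within the WT range and library 2 at 53.5% of the WT mean, with a log2 difference of -0.81 ± 0.15 (SE, limma adjusted p = 0.0186). The call was lost without the filter on low values (adjusted p = 0.0590). Pfkfb3, which makes the activator of phosphofructokinase, stood at 7.04 and 5.64 FPKM in clone 2, 6.45 and 5.60 FPKM in clone 1 and 6.14 to 7.69 FPKM in WT (adjusted p = 0.239 in library 2). Pfkfb4, an enzyme of the same family, stood at 4.88 and 5.40 FPKM in clone 2, 4.43 and 4.60 FPKM in clone 1 and 5.45, 5.61, 5.52 and 5.53 FPKM in WT. It was the 1 tested gene of the 36 with all 4 null libraries below all 4 WT libraries, a position held by 3.22% of all genes, and its lowest values were in clone 1.

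The HIF alpha subunit gene Hif1a (chr12:73901375-73947530, plus strand) lay on the other side of WT from most targets in clone 2. Its level was 46.4 and 48.6 FPKM in clone 2, 38.2 and 35.4 FPKM in clone 1 and 44.3, 40.6, 43.9 and 44.8 FPKM in WT, with clone 2 above and clone 1 below every WT library. In clone 2 neither library passed against WT (limma adjusted p = 0.617 and 0.199). HIF activity is known to be set mainly at the level of the alpha protein, which was not measured. Epas1, the gene of HIF-2 alpha, was under the filter, at 0.385 and 0.328 FPKM in clone 2, 0.155 and 0.154 FPKM in clone 1 and 0.101, 0.148, 0.172 and 0.173 FPKM in WT.

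Both prolyl hydroxylase genes, which HIF itself is known to induce, were lower in clone 2 library 2 than in WT. Egln3 (chr12:54178981-54203860, minus strand) stood at 4.10 and 2.16 FPKM in clone 2, 6.80 and 6.37 FPKM in clone 1 and 5.84, 7.13, 4.57 and 5.10 FPKM in WT. Both clone 2 libraries lay below WT, library 1 at 72.4% and library 2 at 38.1% of the WT mean. The log2 difference in library 2 was -1.06 ± 0.18 (SE, limma adjusted p = 0.0149), against -0.37 ± 0.18 in library 1 (adjusted p = 0.388). Egln1, the main oxygen sensor of most cells, stood at 15.6 and 11.3 FPKM in clone 2, 14.8 and 14.7 FPKM in clone 1 and 15.0 to 19.2 FPKM in WT. Library 1 lay within WT, and the call in library 2 (adjusted p = 0.0407) was lost in 7 of the 11 alternatives, among them those without WT library 1, 3 or 4 or without either clone 1 library (up to 0.0963).

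Among the other HIF targets, 5 of 9 tested genes were lower in clone 2 library 2 than in WT, and all 9 lay below every WT library there. Bnip3 (chr7:138890836-138909519, minus strand) encodes a mitophagy receptor, and its library 2 level was 42.0% of that in library 1, next to the lowest of the 36 after Car9 at 40.7%. It stood at 51.7 and 21.7 FPKM in clone 2, 65.8 and 55.5 FPKM in clone 1 and 61.7, 77.7, 53.8 and 56.6 FPKM in WT. Library 1 was just under the lowest WT library and library 2 at 34.7% of the WT mean, with log2 differences of -0.25 ± 0.21 (SE, limma adjusted p = 0.651) in library 1 and -1.47 ± 0.21 (adjusted p = 0.0171) in library 2. Bnip3l, its relative, stood at 155 and 121 FPKM in clone 2, 150.0 and 129 FPKM in clone 1 and 146 to 170.5 FPKM in WT, and did not pass (adjusted p = 0.0678 in library 2).

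Car9, a carbonic anhydrase that acidifies the surroundings of hypoxic cells, was near the filter, at 2.07 and 0.842 FPKM in clone 2, 2.92 and 3.36 FPKM in clone 1 and 2.22, 1.88, 2.55 and 1.98 FPKM in WT. Library 2 was lower (log2 difference -0.77 ± 0.14, SE, limma adjusted p = 0.0174), library 1 lay within WT, and both clone 1 libraries lay above WT. Ndrg1, a stress-responsive gene, stood at 3.73 and 2.14 FPKM in clone 2, 7.88 and 6.19 FPKM in clone 1 and 4.72, 7.36, 6.42 and 5.07 FPKM in WT (library 2 adjusted p = 0.0229, lost without WT library 3, without the filter and with limma without trend or robust moderation, up to 0.0626). Ddit4, an inhibitor of mTORC1 that responds to hypoxia and to other stresses, stood at 85.5 and 58.2 FPKM in clone 2, 132 and 115 FPKM in clone 1 and 116, 142, 108 and 113 FPKM in WT. Both clone 2 libraries lay below WT for Ndrg1 and Ddit4, and library 2 was the lower one for each. For Ddit4 the log2 difference in library 2 was -1.02 ± 0.16 (SE, limma adjusted p = 0.0173).

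P4ha1, a collagen prolyl hydroxylase subunit, was lower in clone 2 library 2, with 15.9 and 11.2 FPKM in clone 2, 16.9 and 15.7 FPKM in clone 1 and 16.3 to 20.2 FPKM in WT (limma adjusted p = 0.0172). The differences of its paralogue P4ha2, of Vegfa, the vessel growth factor, and of Ankrd37 were -0.26, -0.55 and -0.38 in library 2 and did not pass. Vegfa stood at 12.4 and 8.73 FPKM in clone 2, 16.7 and 13.8 FPKM in clone 1 and 11.9 to 16.2 FPKM in WT. P4ha2 stood at 10.7 and 8.66 FPKM in clone 2, 13.1 and 11.1 FPKM in clone 1 and 10.2 to 11.5 FPKM in WT. Ankrd37 had its lowest values in clone 1, with 3.95 and 2.63 FPKM in clone 2, 2.36 and 2.43 FPKM in clone 1 and 2.89 to 4.62 FPKM in WT. Adm, a vasodilator peptide gene, was under the filter, at 0.497 and 0.0517 FPKM in clone 2, 0.919 and 0.493 FPKM in clone 1 and 0.702, 1.19, 0.203 and 0.429 FPKM in WT.

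With both libraries in 1 group, clone 2 had 7 of the 36 genes lower and 0 higher than WT by limma, where 6.96% of all tested genes were called lower and 7.06% higher. These were Slc2a1, Pfkm, Pfkl, Pgam1, Slc16a1, Ndrg1 and Gapdh. Slc2a1 averaged 290.2 ± 9.20 FPKM in clone 2 and 343 ± 16.2 FPKM in WT (SD, n = 2 and 4), a log2 difference of -0.24 ± 0.05 (SE, limma adjusted p = 0.0162). Pfkl averaged 103 ± 18.7 FPKM in clone 2 and 143 ± 10.9 FPKM in WT, a difference of -0.49 ± 0.11 (adjusted p = 0.0326). Library 2 stood at 57.4% to 102% of library 1 for these 7, and 5 of them were also called in library 2 alone. Ldha (-0.37, limma adjusted p = 0.0763), Aldoc (-1.39, adjusted p = 0.0524) and Bnip3 (-0.86, adjusted p = 0.185) did not pass. The median difference of the 36 was -0.30, against 0 over all genes, and 35 were negative. The count rested on single libraries: it was 0 without clone 2 library 2, 22 without clone 2 library 1, and 4, 2, 3 and 1 without WT libraries 1, 2, 3 and 4. The median was -0.47 to -0.15 over the 13 alternatives run.

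Clone 1 had 2 of the 36 genes lower and 2 higher than WT by limma, where 11.4% of all genes were called lower and 4.16% higher. Ldhb averaged 78.6 ± 1.02 FPKM in clone 1 and 63.5 ± 5.68 FPKM in WT (SD, n = 2 and 4), a log2 difference of 0.31 ± 0.07 (SE, limma adjusted p = 0.0238). Slc2a1 averaged 386 ± 13.3 FPKM in clone 1 and 343 ± 16.2 FPKM in WT (0.17 ± 0.05, adjusted p = 0.0398). The lower genes were Hif1a (-0.23 ± 0.05, adjusted p = 0.0257) and Pfkfb4 (-0.24 ± 0.07, adjusted p = 0.0419). The median over the 36 was 0.05, against -0.05 over all genes. Without clone 1 library 2, the library with the high Rn7sk, 0 genes passed, and the same held without WT libraries 1, 3 or 4; without clone 1 library 1 or WT library 2, 1 gene was lower, and without clone 1 library 1, 0 were higher.

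The clones were also set against each other. Clone 2 had 20 of the 36 genes lower and 1 higher than clone 1 by limma, where 15.0% of all genes were called lower and 24.9% higher. Both clone 2 libraries lay below both clone 1 libraries for 27 of the 36 genes, as they did for 27.8% of all genes. Aldoc averaged 7.69 ± 4.07 FPKM in clone 2 and 33.7 ± 2.55 FPKM in clone 1 (SD, n = 2 each), a log2 difference of -2.08 ± 0.39 (SE, limma adjusted p = 0.0103). Slc2a1 had the smallest adjusted p (-0.41 ± 0.05, adjusted p = 0.000843). By role, 7 of 9 genes of upper glycolysis, 6 of 8 of lower glycolysis and lactate dehydrogenase, 3 of 4 transporters, 1 of 2 prolyl hydroxylases (Egln3) and 3 of 9 other HIF targets (Ndrg1, Car9 and Ddit4) were lower in clone 2, and 0 of 3 flux regulators. Hif1a was the gene that was higher in clone 2 (0.36 ± 0.06, adjusted p = 0.00294). The calls of Gpi1, Pfkl, Slc2a1, Ldhb and Hif1a were kept in each of the 13 alternatives. The count of lower genes was 6 without clone 2 library 2, 13 without clone 1 library 2 and 9 without clone 1 library 1.

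With the clones joined, 0 of the 36 genes passed between null and WT by limma, where 0.0551% of all genes were called. Limma without trend or robust moderation also called 0. The smallest adjusted p was 0.924, for Gapdh. The median difference was -0.14, against -0.02 over all genes, and it was -0.21 to -0.04 over the 13 alternatives. These comparisons share their WT libraries, and those with clone 2 share its libraries. In the authors' deposited table, 2 of the 38 genes had an unadjusted p under 0.05 for null over WT, Bnip3l with a fold of 0.875 (p = 0.00246) and Epas1 with a fold of 1.80 (p = 0.0171). That p has no stated test, and the share of all genes with such a p under 0.05 was not counted.

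The WT libraries varied together for these genes. WT library 2 was the highest of the 4 for 31 of the 36 genes, as it was for 37.9% of all genes, and WT library 3 the lowest for 19, as it was for 28.0%. WT library 2 stood at a median of 115.7% of the mean of the other WT libraries over the 36 genes, against 101.3% over all genes. In this library Bnip3 reached 77.7 FPKM and Ddit4 142.3 FPKM. Leaving it out kept the count of lower genes in clone 2 library 2 at 22.

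Further genes of the HIF pathway and of energy metabolism, outside the 38, were read by list. Of 13 tested HIF partners and regulators, 2 were higher and 1 lower in clone 2 than in WT. Over all tested genes 7.06% were higher and 6.96% lower there, and the 0 to 2 calls per direction here and in the metabolic lists that follow are to be read against these shares: 1 of 13 or 1 of 18 is near them. Hif3a, a HIF alpha relative and a known HIF target, was lower, at 5.51 and 3.55 FPKM in clone 2, 11.9 and 9.73 FPKM in clone 1 and 6.81 to 8.85 FPKM in WT (-0.64, limma adjusted p = 0.0307). Egln2, a further prolyl hydroxylase, and Vhl, which recognises hydroxylated HIF alpha, were higher (0.25 and 0.26, adjusted p = 0.0245 and 0.0497). Of 25 further HIF targets tested, 0 were higher and 1 lower in clone 2 (Mif, -0.14, adjusted p = 0.0476), and 4 were lower in clone 2 library 2 (Mif, Ero1l, Fam162a and Loxl2), where 6.05% of all tested genes were. Fam162a, a mitochondrial gene induced by hypoxia, stood at 107 and 75.2 FPKM in clone 2, 139 and 142 FPKM in clone 1 and 118 to 149 FPKM in WT. The median of these 25 in library 2 was -0.11, and that of the 36 was -0.47.

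Further along the same metabolism, 1 of 18 genes of the tricarboxylic acid cycle was higher in clone 2 (Cs, citrate synthase, 0.18, limma adjusted p = 0.0274) and 1 lower (Idh2, -0.14, adjusted p = 0.0388). Of 17 nuclear subunits of oxidative phosphorylation, 0 passed in clone 2, and their differences ran between -0.12 and 0.10. Of 12 genes of pyruvate entry, Pdha1 and Mpc1 were higher (0.18 and 0.37, adjusted p = 0.0245 and 0.0378). In the pentose phosphate pathway Tkt was lower (-0.17, adjusted p = 0.0236), 1 of 8. Among 9 less common glycolysis genes 0 passed in clone 2, while in clone 1, where 11.4% of all genes were lower, 3 were lower, among them Slc2a4, a glucose transporter of muscle and fat, and Bsg, the partner that brings lactate transporters to the membrane.

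Of 8 nutrient and stress response genes, Txnip and Arrdc4, which are known to rise with intracellular glucose, were lower in clone 2. Txnip stood at 15.3 and 9.40 FPKM in clone 2, 57.0 and 43.7 FPKM in clone 1 and 23.3, 40.1, 27.2 and 26.7 FPKM in WT (-1.19, limma adjusted p = 0.0475). Atf4, the central factor of the amino acid response, was higher, at 68.1 and 77.6 FPKM in clone 2, 64.6 and 60.6 FPKM in clone 1 and 58.0 to 61.9 FPKM in WT (0.28, adjusted p = 0.0193). The other 5 of the 8 did not pass in clone 2. Of all 8 differences from WT, 5 were negative and 3 positive in clone 2 (median -0.07). In clone 1, 7 were positive and 1 negative (median 0.38), and 1 gene passed, as higher.

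Regional and cell type markers also differed between these libraries. The summed level of 7 anterior neural genes was 39.4 and 19.1 FPKM in clone 2, 78.7 and 69.9 FPKM in clone 1 and 94.5 to 124.7 FPKM in WT. Of the 6 tested, 5 were lower and 0 higher in clone 2 than in WT. This count and the clone 2 counts below are to be read against 6.96% of all tested genes called lower and 7.06% higher. The 8 midbrain-hindbrain genes summed to 294 and 327 FPKM in clone 2, 101 and 112 FPKM in clone 1 and 154 to 189 FPKM in WT, and 6 of 8 were higher in clone 2. The 9 pluripotent and epiblast genes summed to 84.3 and 73.8 FPKM in clone 2, 194 and 174 FPKM in clone 1 and 99.95 to 126 FPKM in WT. Of the 6 tested, 2 were lower and 0 higher in clone 2, and 6 were higher in clone 1. The 5 epithelial genes listed for surface ectoderm (Krt8, Krt18, Epcam, Cdh1 and Cldn6) summed to 41.5 and 29.0 FPKM in clone 2, 81.2 and 70.1 FPKM in clone 1 and 35.6 to 52.2 FPKM in WT. Of these 5, 0 passed in clone 2, and 3 were higher and 0 lower in clone 1. In clone 1, 4.16% of all tested genes were called higher and 11.4% lower. Of the 10 progenitor genes, 5 were higher and 2 lower in clone 2 than in WT by limma, so their near-equal sums hide opposite changes: Fabp7, a fatty acid binding protein of radial glia, stood at 9.18 and 18.8 FPKM in clone 2, 0.931 and 0.683 FPKM in clone 1 and 1.30 to 2.76 FPKM in WT (2.26, adjusted p = 0.00924). Vim, an intermediate filament gene, was higher (0.42, adjusted p = 0.00464), and Pax6, a transcription factor of forebrain progenitors, was lower, at 17.8 and 11.1 FPKM in clone 2, 32.1 and 30.3 FPKM in clone 1 and 36.2 to 39.8 FPKM in WT (-1.39, adjusted p = 0.00500). The 7 neuron genes in the table summed to 60.7 and 60.2 FPKM in clone 2, 73.1 and 64.4 FPKM in clone 1 and 72.3 to 75.9 FPKM in WT, and of 6 tested, Stmn2 (-0.65, limma adjusted p = 0.0179) and Elavl3 (-0.41, adjusted p = 0.0251) were lower in clone 2. No gene of these lists was at 0 in all 8 libraries. Clone 2 library 2 thus held the lowest anterior neural and the highest midbrain-hindbrain sum together with the lowest levels of most glycolysis genes, and WT library 2 held the highest anterior neural and the lowest midbrain-hindbrain sum of WT. Both clone 1 libraries lay below every WT library in both of these regional sums, while the 36 genes stood there at medians of 105.1% and 100.2% of the WT mean. The pluripotent and epiblast sum was lowest in clone 2 library 2 and, within WT, highest in WT library 2. It lay below every WT library in both clone 2 libraries and above every WT library in both clone 1 libraries. The part of these cell states in the differences was not tested. Mesoderm, endoderm and neural crest lists had 0 genes at a mean of 1 FPKM.

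For some genes the reads may be shared with a neighbour, since the use of strand in counting is not stated for these values. Exons of Pfkm, Pfkp, Aldoa, Tpi1 and Gapdh overlap those of protein-coding genes on the opposite strand (Senp1, Pitrm1, Fam57b, Spsb2 and Iffo1) in GENCODE M21. Ankrd37 overlaps Ufsp2, which at a mean of 19.3 FPKM stood well above it, and Car9, Ndrg1, Slc2a1, Hif1a and Bnip3 overlap antisense transcripts. Pitrm1, at a mean of 52.0 FPKM, likewise stood above Pfkp, and Gm12454 over Car9 (2.32 FPKM) and Gm17035 over Ndrg1 (3.94 FPKM) were at levels close to those genes. Senp1, at a mean of 24.5 FPKM, was also close to Pfkm, which ranged from 25.3 to 35.2 FPKM. Hk1 overlaps the antisense Hk1os, at a mean of 0.702 FPKM. Some overlaps lie on the same strand, where strand use would not separate the reads. They are those of Hif1a with the protein-coding Gm49321, Pkm with Gm49759 and Pfkm with Gm26513. Gm26513 was at a mean of 0.345 FPKM, and Gm49321 and Gm49759 had no FPKM value.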

How the data were processed

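Poly(A) RNA-seq of 8 libraries was analysed from 1 table. Its FPKM values, per library and averaged per genotype, are the authors' own, per the file headers. The authors also deposited a signal value per genotype (mean reads, scaling unknown), a fold (ratio of null to WT mean reads) and a p-value without naming its test. The submitters' processing notes list TopHat2, Cufflinks, SAMtools, FastQC and DESeq2 with GRCm38/mm10, and give neither versions nor the role of each.

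Tests were run with limma 3.58.1 (R 4.3.3, trend and robust moderation) on log2(FPKM + 1) of all genes averaging 1 FPKM or more, with Benjamini-Hochberg adjustment and a threshold of 0.05. A difference on this scale understates changes of low genes. WT, clone 1 and clone 2 shared 1 fit, each clone 2 library was its own group in another, and null against WT used 2 groups. Null columns carry a clone and a number within it, and were used as libraries of that clone. The row taken for Gapdh carries a further symbol, Gm20899. The fit was tested on simulated data in which the changed genes were drawn only from those at higher levels in WT. The recovery given here thus does not cover genes at low levels, such as Car9 and Ankrd37. With 200 of 14521 genes changed in clone 2, 75% of changes of 0.5 and 96% of changes of 1 on the log2 scale were recovered against WT. There were 11 false calls. For a single clone 2 library against WT, 56% of changes of 0.5 were recovered, and 93% (library 1) and 95% (library 2) of changes of 1. Alternatives were a pseudocount of 0.1, no filter on low values, median-ratio scaling, limma without trend or robust moderation, each library left out in turn, only the 2 groups compared, and libraries of a clone treated as correlated.

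All 38 genes were named. From further lists up to 3 genes past the threshold in clone 2 and up to 2 in clone 1 were named, by smallest adjusted p, and Ero1l, Fam162a and Loxl2 after their values were seen. The 38 genes and all lists were chosen with earlier results of these data known. Gene positions are from GENCODE M21 (GRCm38), and promoters are from RefSeq (GRCm38.p6).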

Additional observations from a re-analysis of the deposited data

Results flagged for a closer look

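In WT, 3 genes had 1 library whose gap to the nearest other was larger than expected among 4 values: Aldoc in WT library 2 (29.4 FPKM), Slc2a3 in WT library 2 (397.6 FPKM) and P4ha2 in WT library 3 (11.5 FPKM). Chance flags about 1 in 20 groups. Leaving out WT library 2 kept both Aldoc and Slc2a3 past the threshold in clone 2 library 2.

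The change relative to WT differed between the clones, by the limma test of clone 2 minus clone 1, for 21 genes, 20 lower and 1 higher in clone 2. It is the same comparison of the clones as above, where 15.0% of all tested genes were called lower and 24.9% higher. The log2 difference was -2.08 for Aldoc, -1.04 for Pfkp, -0.78 for Aldoa, -0.70 for Pfkl, -0.51 for Hk1, -0.38 for Gpi1 and -0.32 for Pfkm in upper glycolysis. In lower glycolysis and lactate dehydrogenase it was -0.54 for Pgk1, -0.46 for Eno2, -0.37 for Ldhb, -0.23 for Pgam1, -0.20 for Eno1 and -0.16 for Pkm. Among transporters it was -0.68 for Slc2a3, -0.41 for Slc2a1 and -0.30 for Slc16a1. In the HIF pathway it was -0.92 for Egln3, -1.05 for Ndrg1, -0.80 for Car9, -0.79 for Ddit4 and 0.36 for Hif1a. The part of the regional and pluripotent marker differences between the clones in these values was not tested.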

How the results depend on the processing

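The number of the 36 genes past the threshold depended on single libraries and on the filter. Lower genes in clone 2 against WT numbered 7 as reported, 11 with median-ratio scaling and 1, with 1 higher, without the filter on low values. Leaving out 1 library gave 0 to 22 lower there, 0 to 2 lower and 0 to 3 higher in clone 1 against WT, 6 to 28 lower in clone 2 against clone 1, 0 to 1 lower in clone 2 library 1 and 0 to 3 higher in library 1 against library 2. In clone 1 against WT, no filter gave 0 lower and 0 higher, median-ratio scaling 0 lower, and limma without trend or robust moderation 0 higher. In clone 2 against clone 1, no filter gave 2 higher, and a fit of the 2 groups alone 9 lower. Without the filter about 28300 genes entered both the fit and the adjustment. The causes of these changes in count were not tested. Of 658 single-gene values recomputed, 494 were still past the threshold, 164 were not and 0 changed sign. The range of all genes past the threshold was 172 to 2473 in clone 2 against WT and 438 to 3091 in clone 1 against WT. No paired analysis was possible because null columns are numbered within each clone while the sample titles number null across clones, so no column number pairs a null library with a WT one. Treating libraries of a clone as correlated (0.514) kept the calls among the 36 genes at 0 in null against WT. Over all tested genes it left 4 calls, against 8 as reported. Depth per library is unknown, and 2 libraries per clone and 1 line per clone limit what any p-value covers.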
